A study of Mus musculus with 4 samples.

Results

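CTCF, a protein with zinc fingers that contact DNA, can halt cohesin, the ring complex that holds and extrudes chromatin loops and of which RAD21 is a subunit. H3K4me3, trimethylated lysine in the tail of histone H3, marks the nucleosomes of active and poised promoters, and in stem cells it also covers many promoters of genes that are not yet transcribed. Described here are the CTCF peaks that lay on H3K4me3 and did not overlap RAD21. They were chosen by position: an autosomal CTCF peak was taken when it shared at least 1 bp with an H3K4me3 peak and none with a RAD21 peak. This gave 1047 of 50546 autosomal CTCF peaks, or 2.07% (Wilson 95% interval 1.95 to 2.20%). They are called RAD21-free peaks below, and the 2774 CTCF peaks with both H3K4me3 and RAD21 are called RAD21-positive peaks.

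The peaks came from ChIP-exo, in which an exonuclease trims immunoprecipitated DNA up to the crosslinked protein. Bruce-4, a mouse embryonic stem cell line of C57BL/6J genotype, was grown in serum/2i/LIF on gelatin and fixed with formaldehyde at 1% for 10 min. No treatment or depletion was applied, so every library describes the same untreated culture condition. The 4 libraries, each from 10000000 cells, comprised 1 for H3K4me3, 1 for RAD21 and 2 for CTCF. The CTCF list analysed is named a union but belongs to the second CTCF library by its record, and whether it pools both libraries is not stated. Each CTCF count below therefore stands for that list and not for a known set of libraries. The lists held positions without heights, so sequencing depth was unknown. On the 19 autosomes there were 21006 H3K4me3 peaks of median length 683 bp, 74004 RAD21 peaks of median length 141 bp and CTCF peaks of median length 104 bp. H3K4me3 lay within 1 kb of an end of 58.0% of all autosomal protein-coding genes. It was there at 22 of 25 pluripotency genes, 23 of 33 germ layer regulators and 25 of 39 Hox genes, and at 7 of 28 genes of terminal tissues and 5 of 16 fibroblast genes. With 1 list per antibody analysed here, the CTCF replicates could not be compared and no test was made over samples. Intervals are 95% Wilson intervals for shares and Newcombe intervals for differences, cover counting error only, and treat neighbouring peaks as independent.

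The absence of RAD21 refers to the peak itself and not to the promoter around it. Of the 1047 RAD21-free peaks, 279 (26.6%) lay on an H3K4me3 peak that overlapped RAD21 elsewhere. A RAD21 peak absent from the list shows only that none was called.

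Sequence was read for the RAD21-free peaks that lay wholly inside a RefSeq promoter window (GRCm38.p6, the assembly named mm10, 250 bases before to 50 after a transcript start). There were 180 of them, of which 122 lay wholly upstream of the start on chromosomes other than 8 and 18. Both strands were searched for the core of the CTCF motif, taken as CC, 3 free bases, AG, 2 free bases and GGC, which 16 of the 122 held. The 6 longest of those 16 peaks are printed on the strand of the gene, 5′ to 3′, with the match in capitals, to show what a recognisable CTCF site without RAD21 looks like.
Syngr1: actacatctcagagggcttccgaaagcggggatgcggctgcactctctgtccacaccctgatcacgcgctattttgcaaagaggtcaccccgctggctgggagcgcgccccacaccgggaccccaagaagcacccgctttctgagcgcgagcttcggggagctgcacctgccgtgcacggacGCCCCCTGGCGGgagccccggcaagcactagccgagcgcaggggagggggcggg
Cobll1: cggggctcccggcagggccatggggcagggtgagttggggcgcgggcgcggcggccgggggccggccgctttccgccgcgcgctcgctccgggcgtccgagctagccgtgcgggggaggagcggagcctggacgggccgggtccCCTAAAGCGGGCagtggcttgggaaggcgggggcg
Fam78a: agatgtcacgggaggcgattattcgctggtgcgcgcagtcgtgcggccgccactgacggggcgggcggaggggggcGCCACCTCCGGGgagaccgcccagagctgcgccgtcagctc
Mfsd6l: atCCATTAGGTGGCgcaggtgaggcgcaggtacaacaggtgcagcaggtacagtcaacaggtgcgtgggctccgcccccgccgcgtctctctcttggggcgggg
Bbc3: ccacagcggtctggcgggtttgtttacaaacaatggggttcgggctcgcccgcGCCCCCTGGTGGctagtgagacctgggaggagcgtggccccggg
Utp25: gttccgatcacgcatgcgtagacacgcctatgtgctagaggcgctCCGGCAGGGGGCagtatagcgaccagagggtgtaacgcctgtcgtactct

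These peaks all lay upstream of an annotated transcript start. The Syngr1 peak (chr15:80091092-80091327, plus strand) is at the gene of a synaptic vesicle membrane protein, had its midpoint 124 bp before the start and was 2202 bp from the nearest RAD21 peak. The peak at Bbc3, which encodes the apoptosis inducer PUMA, was 97 bp long (chr7:16310074-16310170, plus strand) and 15041 bp from RAD21. The Utp25 peak, at a gene for ribosome biogenesis, was 95 bp long (chr1:193130287-193130381, minus strand) and 3461 bp from RAD21. At Cobll1 (chr2:65238833-65239011, minus strand) the gap to RAD21 was 58473 bp, among the 5 widest. At Fam78a (chr2:32083709-32083825, minus strand) it was 14365 bp, and at Mfsd6l (chr11:68556037-68556140, plus strand) 1884 bp. The matches ran in both directions, on the gene's strand at Cobll1, Mfsd6l and Utp25 and on the opposite strand at Syngr1, Fam78a and Bbc3.

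The larger part of the RAD21-free peaks in promoter windows did not hold the core letters. The 4 longest upstream peaks without them that held a GC box, GGGCGG on either strand, the letters bound by SP1-like factors, are shown with that box in capitals.
Rnf114: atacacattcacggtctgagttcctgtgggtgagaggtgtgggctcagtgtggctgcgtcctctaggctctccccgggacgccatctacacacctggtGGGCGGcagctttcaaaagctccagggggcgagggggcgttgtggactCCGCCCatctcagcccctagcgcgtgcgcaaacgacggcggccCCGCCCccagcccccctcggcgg
Lrrc15: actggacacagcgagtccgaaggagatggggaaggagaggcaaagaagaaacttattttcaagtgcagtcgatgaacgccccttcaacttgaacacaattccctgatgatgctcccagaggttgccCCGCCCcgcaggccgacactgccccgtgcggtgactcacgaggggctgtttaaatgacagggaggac
Rbm43: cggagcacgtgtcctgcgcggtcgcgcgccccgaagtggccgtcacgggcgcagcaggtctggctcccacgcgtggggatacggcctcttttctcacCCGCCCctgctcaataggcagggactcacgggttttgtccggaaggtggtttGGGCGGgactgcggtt
Gpr19: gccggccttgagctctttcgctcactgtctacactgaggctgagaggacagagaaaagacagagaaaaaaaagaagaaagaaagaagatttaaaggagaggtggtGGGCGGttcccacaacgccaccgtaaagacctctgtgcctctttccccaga

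The peak at Rnf114 (chr2:167503210-167503421, plus strand), the gene of a ubiquitin ligase, held 3 GC boxes and lay 5628 bp from RAD21. The others were at Lrrc15 (chr16:30283272-30283464, minus strand, 494 bp from RAD21), Rbm43 (chr2:51934724-51934888, minus strand, 137 bp) and Gpr19 (chr6:134897980-134898135, minus strand, 9664 bp). Many RAD21-free peaks were at the shortest lengths of the list. The first such upstream peaks without the core letters in chromosome order show how little sequence they cover, and neither core letters nor a GC box was found in them.
Actr1b: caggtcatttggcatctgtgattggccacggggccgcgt
Fam117b: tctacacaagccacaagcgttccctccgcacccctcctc
Kdsr: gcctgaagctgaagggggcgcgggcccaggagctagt
Brox: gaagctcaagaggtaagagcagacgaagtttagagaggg

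These short calls were at Actr1b, a dynactin subunit gene (chr1:36709989-36710027, minus strand), Fam117b (chr1:59912762-59912800, plus strand), Kdsr, a gene of sphingolipid synthesis (chr1:106759777-106759813, minus strand), and Brox (chr1:183297155-183297193, minus strand). Absence of the letters says only that they are not in that window.

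Counted over all 180 peaks inside promoter windows, the core letters were in 27 RAD21-free peaks, or 15.0% (95% interval 10.5 to 20.9%). Of 338 RAD21-positive peaks inside promoter windows 117 held them, or 34.6% (29.7 to 39.8%), and the difference was -19.6 percentage points (Newcombe 95% interval -26.5 to -11.9). CTCF peaks with neither H3K4me3 nor RAD21 held them in 30 of 164, or 18.3% (13.1 to 24.9%), an interval that overlapped that of RAD21-free peaks. RAD21-positive peaks are longer and so offer more sequence. In windows of equal size, 100 bp around the peak midpoint, the shares were 15.4% of 169 and 25.7% of 487, a difference of -10.3 points (-16.5 to -3.07). CTCF peaks with neither mark held the core letters in 34 of 150 of these windows (22.7%), with an interval that overlapped those of both classes. Among peaks of at least 40 bp in the same windows the RAD21-free and RAD21-positive shares were 20.9% of 110 and 26.7% of 454. The interval of that difference, -13.6 to 3.61 points, included 0. Both of these shares at 40 bp and over were above the 3.26% of all 31396 promoter windows that held the letters in their central 100 bases. They were also above the 3.30% of 7404 such windows with H3K4me3 and no CTCF peak. At 37 to 39 bp, 3 of 59 RAD21-free windows held the letters (5.08%, 1.74 to 13.9%), an interval that included both backgrounds. Of RAD21-positive windows at those lengths, 4 of 33 held them (12.1%, 4.82 to 27.3%). A stricter form had both later free bases fixed to G, so that the core ends in AGGGGGC. Over all lengths, 6.51% of RAD21-free and 8.62% of RAD21-positive windows matched it, against 0.580% of all promoters.

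The GC box ran the other way. In the 100 bp windows it was found in 77 of 169 RAD21-free peaks (45.6%, 38.2 to 53.1%) and in 134 of 487 RAD21-positive peaks (27.5%, 23.7 to 31.6%), a difference of 18.05 points (9.64 to 26.5). CTCF peaks with neither H3K4me3 nor RAD21 held the box in 54 of 150 such windows (36%, 28.8 to 43.9%). Their interval overlapped that of RAD21-free peaks, so a high share was not shown to be particular to RAD21-free peaks. All promoter windows held the box at 19.01%, and those with H3K4me3 and no CTCF peak at 35.2%. Within the peaks as called, which differ in length, the shares were 29.4% and 33.4%, and the interval of the difference, -12.1 to 4.54 points, included 0. The median GC content of the 100 bp windows was 68.0% at RAD21-free and 64.0% at RAD21-positive peaks, against 64.0% in promoters with H3K4me3 and no CTCF peak. The CpG content, observed over expected, was 0.848 and 0.775. The ETS letters CCGGAAG were in 4.73% of RAD21-free and 9.24% of RAD21-positive windows, with a difference of -4.51 points whose interval, -8.22 to 0.377, reached past 0. The CCAAT box was in 12.4% and 10.7%, against 17.9% of all promoters.

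RAD21-free peaks were short. Their median length was 55 bp (quartiles 39 and 115.5 bp, longest 516 bp), compared with 183 bp (108 and 279 bp) for RAD21-positive peaks. The difference of medians was -128 bp and was below 0 on 19 of 19 autosomes (mean -127.8 bp, SD 18.04 over the autosomes, which are not replicates). Lengths of exactly 37 or 39 bp, the most frequent of the shortest calls, made up 427 RAD21-free peaks (40.8%, 37.8 to 43.8%) and 140 RAD21-positive peaks (5.05%, 4.29 to 5.93%). Without these lengths the difference of medians was -89.5 bp, again below 0 on 19 of 19 autosomes. CTCF peaks with neither mark were shorter still, at a median of 39 bp, and 50.6% of them were 37 or 39 bp long. A longer peak has more chance of touching a RAD21 peak, so length was not wholly independent of how the groups were chosen. With overlap decided after CTCF and RAD21 peaks had been set to 200 bp, the difference in called length was -94 bp.

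**Figure D1:**
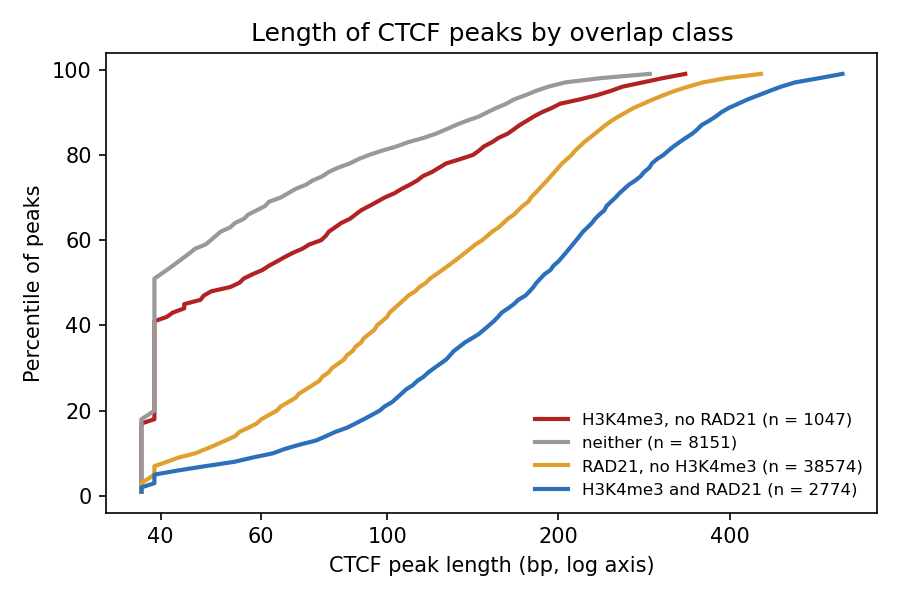
Length of CTCF peaks in bp on a log axis against percentile of peaks, for the 4 classes by overlap with H3K4me3 and RAD21. The curve of the 1047 RAD21-free peaks with H3K4me3 (median 55 bp) runs beside that of CTCF peaks with neither mark (39 bp) at short lengths and far to the left of the RAD21-positive peaks (183 bp).

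Among CTCF peaks on H3K4me3, the share without RAD21 went down with length. It was 74.7% of 576 peaks of 37 to 39 bp, 46.4% of 481 peaks of 40 to 79 bp, 22.6% of 1021 peaks of 80 to 159 bp and 9.35% of 1743 peaks of 160 bp and over. Of all 3821 CTCF peaks on H3K4me3, 27.4% were RAD21-free (26.0 to 28.8%). By autosome this share lay between 19.2% on chromosome 13 and 33.1% on chromosome 12, with an SD of 3.30.

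RAD21-free peaks sat mostly at gene ends, and 64.9% (62.0 to 67.8%) lay within 1 kb of a transcript start, those on chromosome 18 counted as away. Counting both ends of protein-coding and lncRNA genes, 738 lay within 1 kb of such an end (70.5%, 67.7 to 73.2%), against 14.7% of all autosomal CTCF peaks. The requirement for H3K4me3 largely fixes that comparison. A further 235 (22.4%) lay inside genes and 74 (7.07%) between genes. The annotation did not separate exons from introns. RAD21-positive peaks, which also had H3K4me3, lay at gene ends in 59.5% of cases (57.6 to 61.3%), so the RAD21-free share was 11.01 points higher (7.64 to 14.3) and higher on 18 of 19 autosomes. By length group the difference was 8.99 points (1.96 to 15.5) at 80 to 159 bp, where the shares were 70.1% and 61.1%, and 13.4 points (5.68 to 20.3) at 160 bp and over, where they were 71.2% and 57.7%. Among shorter peaks the intervals included 0, with 5.40 points (-3.13 to 14.4) at 37 to 39 bp and 8.39 points (-0.108 to 16.6) at 40 to 79 bp. When only H3K4me3 peaks above their median length were kept, the difference was 0.875 points (-2.95 to 4.57) and its interval included 0.

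Around transcript starts more RAD21-free peaks lay downstream than upstream, except among the longest. Starts with strand came from the promoter windows of 25748 genes on 18 of the autosomes (chromosome 18 was not analysed here for starts), and 680 RAD21-free peaks had their midpoint within 1 kb of a start, 375 of them within 250 bp. Of the 680, 272 lay upstream (40%, 36.4 to 43.7%) and 406 downstream, with 2 on the start and the median 56.5 bp after the start. Of 1433 RAD21-positive peaks within 1 kb, 761 lay upstream (53.1%, 50.5 to 55.7%), with the median 19 bp on the other side of the start. The difference in upstream share was -13.1 points (-17.5 to -8.57) and was below 0 on 17 of those 18 autosomes. The upstream share of RAD21-free peaks was 33.9% at 37 to 39 bp, 42.4% at 40 to 79 bp, 41.7% at 80 to 159 bp and 50.9% (55 of 108) at 160 bp and over. Above the median CTCF length it was 48.7% (41.8 to 55.7%). The difference from RAD21-positive peaks was not even across lengths: -15.6 points (-24.6 to -6.12) among peaks of 80 to 159 bp, but with intervals that included 0 in the other 3 length groups, and 5.28 points the other way at 40 to 79 bp. Among CTCF peaks above the median length it was -6.68 points (-14.2 to 0.909). Length and side moved together, and the part of length in the difference was not tested further. Of 20085 protein-coding promoter windows compared, 49.0% had their start at the gene's annotated 5′ end. How the side depends on the start used was not tested.

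**Figure D2:**
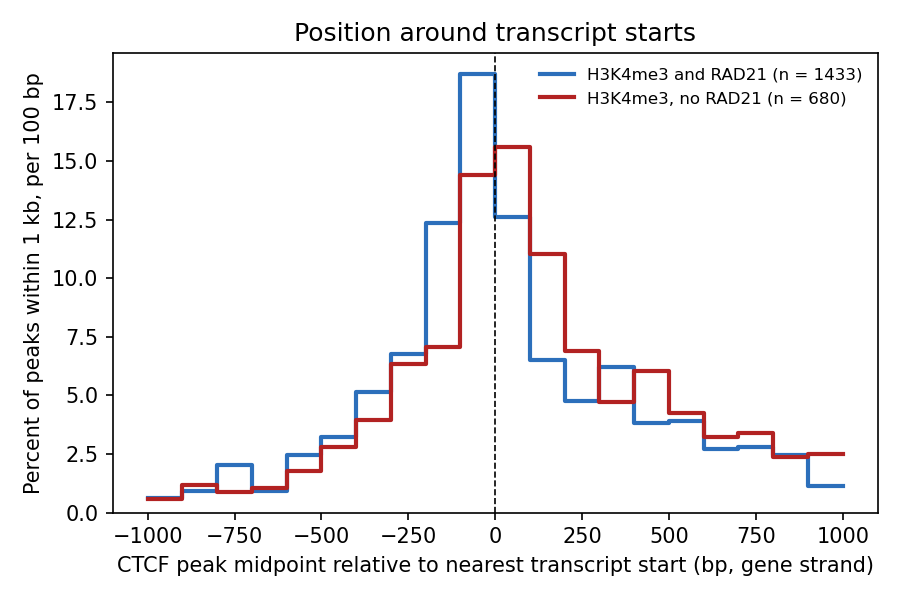
Percent of CTCF peaks per 100 bp by position of the midpoint relative to the nearest transcript start, negative values upstream on the gene's strand, for 680 RAD21-free and 1433 RAD21-positive peaks on H3K4me3 within 1 kb. RAD21-positive peaks are most frequent in the 100 bp before the start (18.7%) and RAD21-free peaks in the 100 bp after it (15.6%), with a longer downstream shoulder.

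Starts on both strands within 1 kb, not separated by their order, were found at 148 of the 680 RAD21-free peaks (21.8%, 18.8 to 25.02%). At RAD21-positive peaks this held for 235 of 1433 (16.4%, 14.6 to 18.4%), a difference of 5.37 points (1.81 to 9.10).

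Within the H3K4me3 peak, RAD21-free peaks were spread evenly, while RAD21-positive peaks gathered at the edges. With the distance from the centre scaled so that the edge of the H3K4me3 peak is at 1, the median was 0.544 for RAD21-free and 0.800 for RAD21-positive peaks, and the difference was below 0 on 19 of 19 autosomes. Each of the 10 equal bins from centre to edge held between 7.74% and 10.1% of the RAD21-free peaks, and 10.3% had their midpoint at the edge or outside. Of RAD21-positive peaks 29.5% had their midpoint at the edge or outside. A long peak can touch H3K4me3 from farther out, so the comparison was repeated by length. The difference in the share nearer the edge than the centre, RAD21-free minus RAD21-positive, was -16.6 points (-25.2 to -7.77) at 40 to 79 bp, -21.2 points (-28.3 to -14.2) at 80 to 159 bp and -12.7 points (-20.6 to -5.23) at 160 bp and over. At 37 to 39 bp no difference was resolved, with 56.5% and 55.5% (-8.10 to 10.4 points).

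**Figure D3:**
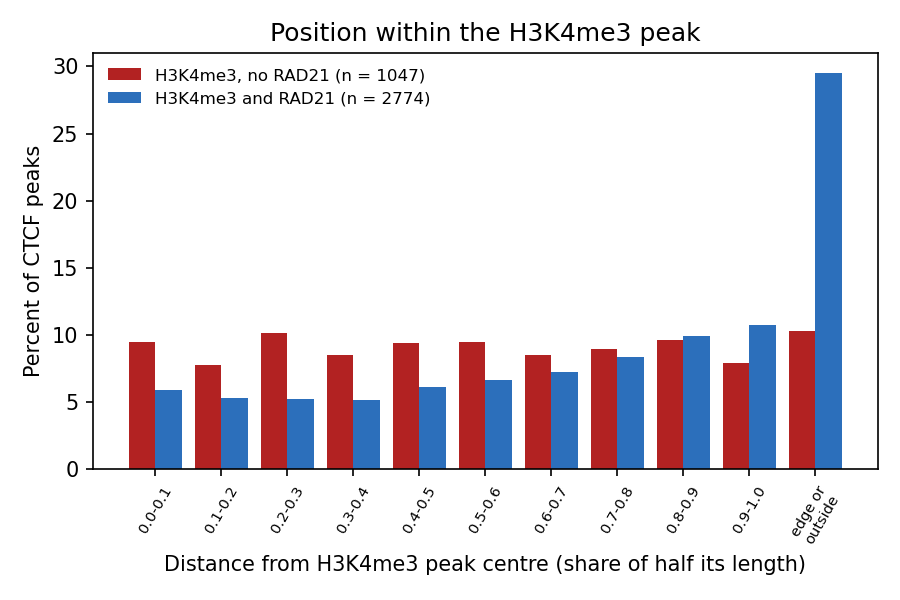
Percent of CTCF peaks by distance of the midpoint from the centre of the H3K4me3 peak, scaled so that the edge is at 1, for 1047 RAD21-free and 2774 RAD21-positive peaks. The RAD21-free bars are nearly level, while the RAD21-positive bars rise towards the edge, where 29.5% lie at the edge or outside.

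The H3K4me3 peaks beneath were also wider. The 1047 RAD21-free peaks fell in 1006 H3K4me3 peaks, 4.79% of the 21006, with a median length of 958.5 bp (quartiles 662.25 and 1272.75 bp). H3K4me3 peaks with RAD21-positive CTCF only numbered 2623 with a median of 735 bp, and the 17377 without CTCF had a median of 658 bp. Counted per CTCF peak, the H3K4me3 length at RAD21-free peaks exceeded that at RAD21-positive peaks by 223 bp and was higher on 19 of 19 autosomes. By CTCF length the medians were close at 37 to 39 bp, with 950.5 and 918 bp. They were 1029 and 824.5 bp at 40 to 79 bp, 949 and 768.5 bp at 80 to 159 bp, and 1002 and 715 bp at 160 bp and over. RAD21 lay somewhere on 199 of the 931 H3K4me3 peaks whose CTCF was all RAD21-free (21.4%, 18.9 to 24.1%), and on 22.4% (21.7 to 23.0%) of those without CTCF.

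The gap from a RAD21-free peak to the nearest RAD21 peak, which the choice of peaks cut at 0, had a median of 2465 bp (quartiles 426 and 7896 bp). It was 100 bp or less for 84 peaks (8.02%), 500 bp or less for 293 (28.0%) and over 10 kb for 207 (19.8%). Among CTCF peaks with neither mark the median gap was 4767 bp, and 13.0% had RAD21 within 500 bp. RAD21-free peaks within 500 bp of RAD21 had a median length of 45 bp, and those over 10 kb away 58 bp. The shares at gene ends of those near and far subsets were 68.6% and 72.9%. At the threshold itself, 2 peaks touched a RAD21 peak with no base shared. These were a 182 bp peak 21896 bp from the start of Zfp382 and a 37 bp peak 213 bp before the start of Nucb2, and at Myo5c a 39 bp peak lay 1 bp from RAD21. Just on the other side, 3 CTCF peaks of 37, 39 and 40 bp shared 1 bp with RAD21, nearest to Gm27252, 2700054A10Rik and Gm30998. At the H3K4me3 limit 27 RAD21-free peaks shared at most 10 bp with the mark.

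**Figure D4:**
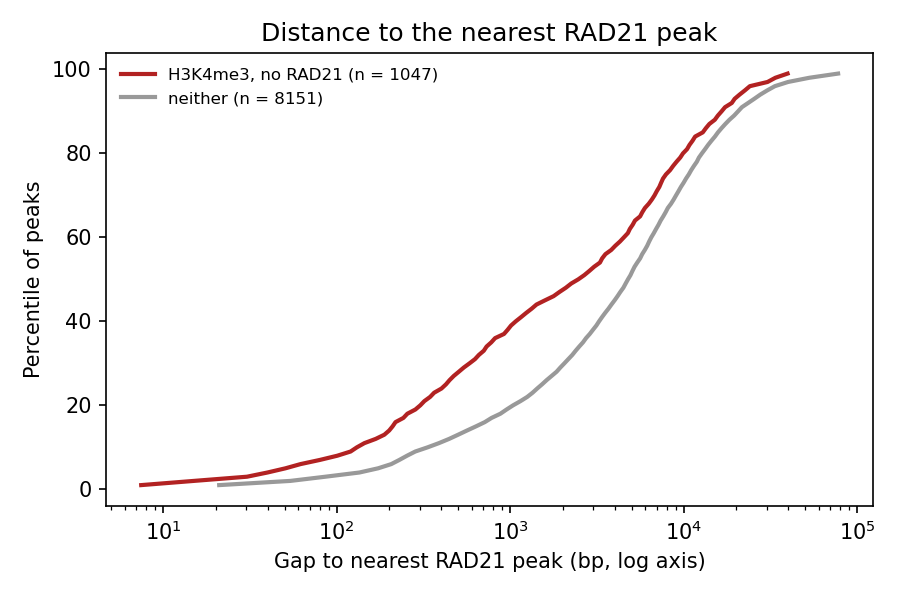
Gap in bp (log axis) to the nearest RAD21 peak against percentile of peaks, from percentile 1 to 99, for RAD21-free CTCF peaks on H3K4me3 and for CTCF peaks with neither mark. Gaps on H3K4me3 were shorter, with medians of 2465 and 4767 bp.

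The widest gap, 103627 bp, was at Dusp10, a MAP kinase phosphatase gene, where a 39 bp peak lay 144 bp after the start on an H3K4me3 peak of 424 bp. Next came Htr4 (serotonin receptor) with 69799 bp, Snap91 (clathrin assembly) with 59151 bp, Cobll1 with 58473 bp and Cop1 (ubiquitin ligase) with 53778 bp. At these 5 the nearest other CTCF peak was also far, between 57253 and 93504 bp away.

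The 10 longest RAD21-free peaks measured 345 to 516 bp. The longest lay 20 bp after the start of Rab10os (chr12:3235553-3236068), an antisense RNA gene, 6113 bp from RAD21. At Rbm19, a ribosome biogenesis gene, a 500 bp peak was 100 bp from RAD21, and at Scaf8, which binds RNA polymerase II, a 438 bp peak was 33 bp from it. At Rad17, a DNA damage checkpoint gene, a 392 bp peak was 83 bp from RAD21, and at Wwox a 386 bp peak was 107 bp from it. The remaining 5, nearest to the starts of Ass1 (420 bp), Nupr1 (401 bp), Tuba4a (387 bp), Tor1aip1 (358 bp) and Gm51986 (345 bp), had gaps of 2937 to 11892 bp. Long RAD21-free peaks thus occurred both beside RAD21 and kilobases from it.

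RAD21-free peaks also lay in some of the widest H3K4me3 peaks. The 10 widest that held one measured 2189 to 2572 bp, the widest of them inside a gene and 42496 bp from the start of Gm41030. At 1342 bp from an annotated boundary of Smc4, a condensin subunit gene, a 44 bp peak lay in an H3K4me3 peak of 2474 bp. Which boundary of the gene it was, first or last base, was not recorded. At Alkbh5, an RNA demethylase gene, the H3K4me3 peak was 2377 bp long, at Rmi1, a gene of the complex that dissolves recombination intermediates, 2260 bp, and at Irf2bpl 2252 bp. At Hira, a histone H3.3 chaperone gene, it was 2220 bp and at Ptma, which encodes prothymosin alpha, 2216 bp, with Gm51903 (2238 bp), Zc3h10 (2223 bp) and Gm39426 (2189 bp) between or below them.

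Most H3K4me3 peaks held a single RAD21-free peak. There were 967 with 1, 38 with 2 and 1 with 4. The 4 lay at chromosome 4 within 57299636 to 57301761, around the starts of the lncRNA gene Gm12536, and were 39, 79, 58 and 54 bp long, with gaps to RAD21 of 2106, 1503, 1235 and 925 bp. The first pairs in chromosome order were at Cnnm4 and Gm33454 (37 and 153 bp), at Ptma (299 and 48 bp), at Gm10516 and Rcor3 (39 and 164 bp) and at Agpat2 (37 and 53 bp). Another CTCF peak of any class lay within 1 kb of 240 RAD21-free peaks (22.9%, 20.5 to 25.6%), compared with 13.8% of RAD21-positive peaks, a difference of 9.15 points (6.37 to 12.1). For 80 of the 240 this neighbour was itself a RAD21-free peak, for 70 a RAD21-positive one, for 60 a CTCF peak with RAD21 alone and for 30 a CTCF peak with neither mark.

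At the level of genes, 795 of 20665 autosomal protein-coding genes had a RAD21-free peak within 1 kb of an end, or 3.85%. Of the 11977 with H3K4me3 there it was 6.64%. RAD21-positive peaks were at 7.94% and 13.7% of the same genes. Both kinds were found at 66 genes, which is 8.30% of those with a RAD21-free peak and 4.02% of the 1641 with a RAD21-positive peak. All 795 genes with a RAD21-free peak had H3K4me3 there. The 8.30% was below the 13.7% of genes with H3K4me3 that had a RAD21-positive peak. Of 12408 lncRNA genes 1.1% had a RAD21-free peak. Lists of genes are given by counts beside these backgrounds, without a test.

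No gene of the pluripotency list had a RAD21-free peak at an end, and none had a RAD21-positive one, although 22 of the 25 had H3K4me3. A count of 0 of 25 allows a share of up to 12%, which includes the background. No RAD21-free peak was found at 33 germ layer regulators (up to 9.09%) or 28 terminal tissue genes (up to 10.7%) either. Of 39 Hox genes 1 had such a peak, Hoxb9, with a 37 bp call 6873 bp from RAD21. Among 16 fibroblast genes it was Fn1, the fibronectin gene, with 39 bp.

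Genes of the general transcription machinery had RAD21-free peaks at 5 of 39 (12.8%, 5.60 to 26.7%), with 13.2% of the 38 that had H3K4me3, beside 3.85% and 6.64% of all genes. They were Taf9, a TFIID subunit (the 392 bp peak named at Rad17), Polr2c, an RNA polymerase II subunit (286 bp, 90 bp before the start), Taf5 (115 bp), Gtf2f1 of TFIIF (85 bp, 106 bp before the start) and Polr2i (54 bp). Of these 5 genes, 1 also had a RAD21-positive peak. The list labelled translation initiation factors took every symbol of Eif followed by a digit, whatever the function of the gene. Of these genes 5 of 53 had RAD21-free peaks (9.43%, 4.10 to 20.3%). They were Eif4e, which binds the mRNA cap (255 bp, 111 bp before the start and 53 bp from RAD21), Eif2b4 (143 bp), Eif1ad (128 bp), Eif4ebp1 (39 bp) and Eif4a3 (37 bp).

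Imprinted genes, expressed from the allele of 1 parent, had RAD21-free peaks at 4 of 32 (12.5%, 4.97 to 28.1%). It was 18.2% of the 22 with H3K4me3. The list includes lncRNA genes such as Airn, unlike the backgrounds of protein-coding genes, and 1.1% of autosomal lncRNA genes had such a peak. All 4 peaks had their midpoint after the start, and the distances from the start are those of midpoints. The peaks at Slc38a4 and Ascl2 spanned the start. At Slc38a4, an amino acid transporter gene, a 195 bp peak was 7 bp after it. At Ube3a, a ubiquitin ligase gene, a 193 bp peak was 165 bp after it and 232 bp from RAD21. At Ascl2, a trophoblast transcription factor gene, a 153 bp peak was 19 bp after it and 33407 bp from RAD21. At Airn, the antisense RNA of the Igf2r domain, a 73 bp peak was 48 bp after it and 30794 bp from RAD21. The alleles could not be told apart in these lists.

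Cell cycle genes had RAD21-free peaks at 3 of 30 (10.0%, 3.46 to 25.6%) and RAD21-positive ones at 0 of 30, which allows a share of up to 10.0%. Plk1, a mitotic kinase gene, had a 171 bp peak 252 bp before the start and 9935 bp from RAD21. Cdk1, the kinase of mitotic entry, had a 72 bp peak 193 bp after the start and 42 bp from RAD21, and Cdkn1b, the p27 inhibitor gene, a 39 bp peak 27212 bp from RAD21. Ribosomal protein genes were taken by symbol, mainly Rpl or Rps followed by a digit, which also admits related names such as Rpl7l1. They had RAD21-free peaks at 7 of 97 (7.22%, 3.54 to 14.2%), the longest at Rpl32 (270 bp), Rps14 (198 bp), Rpl41 (120 bp), Rps27a (116 bp) and Rpl4 (44 bp). Mitochondrial ribosomal genes had them at 4 of 78 (5.13%), namely Mrpl23 (135 bp), Mrpl40, Mrps28 and Mrps35 (37 to 39 bp).

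Zinc finger genes with a Zfp number had RAD21-free peaks at 18 of 388 (4.64%, 2.95 to 7.21%), near the background, and Zfp52 and Zfp53 shared a peak. The longest were at Zfp207 (242 bp), which encodes a mitotic spindle protein, Zfp740 (199 bp), Zfp672 (106 bp), Zfp747 (103 bp) and Zfp64 (81 bp). DNA repair genes had them at 2 of 49, Fanca (270 bp) and Rad51b (37 bp). Single genes were found in 4 lists of chromatin and protein turnover: Mau2, the partner of the cohesin loader (117 bp, 52 bp from RAD21), 1 of 18 genes of cohesin and CTCF, L3mbtl2 (78 bp), 1 of 30 Polycomb genes, Wdr5 (86 bp), 1 of 18 genes of H3K4 methyltransferase complexes, and Psmb5 (200 bp), 1 of 39 proteasome genes.

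**Figure D5:**
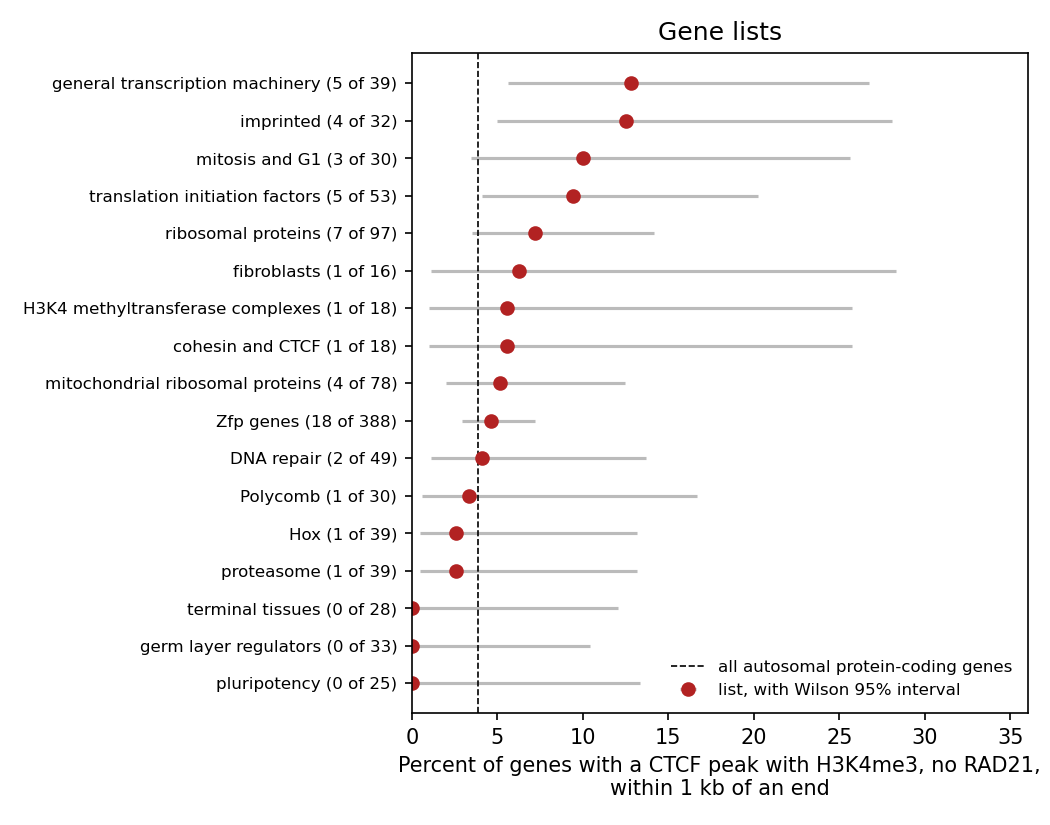
Percent of genes in each list with a RAD21-free CTCF peak on H3K4me3 within 1 kb of an end, with Wilson 95% intervals and the counts beside each name. The dashed line is the 3.85% of all autosomal protein-coding genes. It lies below the intervals of general transcription machinery (from 5.60%), imprinted genes (from 4.97%) and translation initiation factors by symbol (from 4.10%). The line lies inside the intervals of the other lists. No test was made over the lists, and the imprinted list also holds lncRNA genes, which the line leaves out. The 6.64% of genes with H3K4me3 lies inside the interval of every list shown, but its base is genes with H3K4me3 only, unlike the shares drawn.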

How the data were processed

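The authors deposited each peak list as chromosome, start and end, so positions were the only quantity, with no count or score (unit: other). Per the submitters' processing notes the build was mm10, and the tools were MACS2, bedtools 2.30.0, Bowtie2 2.4.5 and Picard 2.27.4. Their roles, thresholds and any control are not given in the sources used. The first CTCF library's own list is not analysed here. Autosomal peaks were kept and an overlap needed 1 bp. Gene ends came from RefSeq genes of GRCm38.p6, and starts with strand and sequence from 31396 RefSeq promoter windows (chromosome 18 not used here). Motif letters were chosen after counting several candidates. Software was scipy 1.17.1, pandas 2.3.3, numpy 2.4.6 and matplotlib 3.10.9 under Python 3.11.15. The code was tested on simulated intervals, and bedtools 2.31.1 gave the same 1047 peaks. The peaks and gene lists were chosen with earlier results of these data known. Named peaks follow a rule: the longest, those in the widest H3K4me3 peaks, the nearest to and farthest from RAD21, H3K4me3 peaks with most of them, and up to 5 genes per list. Alternatives varied the overlap, the peaks kept, the width, the gene window and the motif. Motif strings YY1, NRF1, TATA box, CRE, E-box and ZNF143 were also counted, each in at most 3.55% of RAD21-free windows of 100 bp.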

Additional observations from a re-analysis of the deposited data

How the results depend on the processing

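Of 154 recomputed values, 116 stayed within the main interval, 33 moved and 5 turned sign, and the cause was not tested. For shares and their differences this was the Wilson or Newcombe interval. For medians and their differences it was the main value plus or minus 1 SD over the autosomes. Counts had to stay within 1.5 times the main count. Only the length cuts moved the number of RAD21-free peaks by more: 620 without the 37 and 39 bp calls and 299 above the median CTCF length. These cuts also moved the median length to 101.5 and 166 bp, the length difference to -89.5 and -54 bp, and the core motif share to 24.5% and 27.8%. Requiring overlap to cover at least 50% of the CTCF peak gave a median of 80 bp and a difference of -70 bp. H3K4me3 within 200 bp gave -107 bp, and resizing to 200 bp -94 bp. The share at gene ends was 74.4% on H3K4me3 peaks above the median length, 51.6% within 500 bp, 83.1% within 2.5 kb, 65.7% with protein-coding genes only and 64.9% with starts only (peaks on chromosome 18, where no starts were used, count as away). Its difference from RAD21-positive peaks was 0.875 points on those wider H3K4me3 peaks and 6.08 within 500 bp. The stricter motif gave a share of 6.67% and a difference of -6.06 points, and 100 bp windows gave -10.3. The upstream share of RAD21-free peaks was 46.3% with H3K4me3 within 200 bp, 44.4% without 37 and 39 bp calls and 48.7% above the median length. The GC box difference turned from -3.99 points to 1.38 with no RAD21 within 500 bp, 0.878 without 37 and 39 bp calls, 14.3 above the median length, 1.47 with resized peaks and 18.05 in 100 bp windows. Alternatives for side of the start, place in the H3K4me3 peak, its length and the GC box were added after seeing the data. No paired analysis was possible because 1 list per antibody was analysed here. Depth was unknown.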

Other observations

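Small RNA genes were close to some RAD21-free peaks. Transfer RNA genes, which occur in clusters and are transcribed by RNA polymerase III, lay within 1 kb of 13 of the 1047 (1.24%, 0.727 to 2.11%) and of 30 of 2774 RAD21-positive peaks (1.08%, 0.759 to 1.54%). CTCF peaks off H3K4me3 had them at 0.0981% without RAD21 and 0.0726% with it. MicroRNA genes were within 1 kb of 12 RAD21-free peaks (1.15%, 0.657 to 1.99%) and 16 RAD21-positive peaks (0.577%, 0.355 to 0.935%). Small nuclear RNA genes were near 4 and 8 of these peaks, and pseudogenes near 6 and 24. These counts were chosen after the data had been seen, and neighbouring peaks of 1 cluster are not independent.

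By chromosome, RAD21-free peaks made up between 1.37% of CTCF peaks on chromosome 13 and 2.80% on chromosome 11 (SD 0.372 over the autosomes). The same chromosome 13 had the lowest share among CTCF peaks on H3K4me3.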
